A study of Mus musculus with 6 samples.

Results

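Ttn and 9 partner genes (Gm48051, Hpgds, Xirp2, Zfp981, Stx19, B3galt2, Zan, Airn and Ednra) led a large group of barcodes with few molecules in single-cell libraries of the mouse testis. They were selected on their measured values in that group, so a higher level in shallow barcodes is how they were chosen and is given here as a description with no test. The 10 genes are 10 of 32285 genes counted, and they held 80872 of 429495465 unique molecular identifiers (UMIs, tags that each mark 1 captured RNA molecule). A barcode tags the RNA of 1 droplet, meant to hold 1 cell. Shallow here means a barcode with under 5000 UMIs in all and deep means 5000 UMIs or more. Levels are given in CPM, the UMIs of a gene per 1000000 UMIs of the barcodes summed.

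The series holds 6 libraries, 3 labelled high-fat diet (HFD) and 3 labelled low-fat diet (LFD). All were made from whole testes of wildtype C57BL/6 male mice (C57BL/6N in the study's methods) that were 8 weeks old after 2 weeks on the diet, and per the study's methods the 3 libraries of a diet came from separate mice. Groups follow the GEO titles. The names of the files carry the other diet for every library, and if those names are right each difference between diets below changes sign.

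Titin, the product of Ttn, is the giant elastic protein of the muscle sarcomere, and Xirp2 encodes an actin-binding repeat protein of striated muscle. Hpgds encodes haematopoietic prostaglandin D synthase, an enzyme of immune cells, and Ednra encodes the endothelin receptor A of smooth muscle and other contractile cells. Zan encodes zonadhesin, a protein of the sperm acrosome that binds the zona pellucida. B3galt2 encodes a beta-1,3-galactosyltransferase, Stx19 a syntaxin of membrane fusion and Zfp981 a zinc-finger protein. Airn is the long noncoding RNA that silences Igf2r in the imprinted cluster, and Gm48051 is annotated as a long intergenic noncoding RNA. Sperm cells form from spermatogonia through meiotic spermatocytes to haploid round spermatids, which then elongate and shed much of their cytoplasm. In droplet data a barcode of low total can be a small cell, a cell fragment, a damaged cell or a droplet that holds only free RNA.

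Of 48939 barcodes, 36547 (74.7%) were shallow and 12392 deep, and no barcode held fewer than 1221 UMIs. Shallow barcodes made up 65.9% to 82.7% of a library but held only 12.7% to 36.8% of its UMIs. Their median total was 1891 to 2885 UMIs, against 12627 to 24668 in deep barcodes. The share of UMIs from mitochondrially encoded genes was 2.95% to 11.9% in shallow and 1.33% to 2.59% in deep barcodes. The 2 libraries numbered 1 stood apart, with 2 and 0 haemoglobin UMIs against 1196 to 6724 in the other 4. Across libraries 284 barcode sequences occurred more than once, with at most 28 shared by any pair. Intervals of single counts below cover counting error only.

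The 10 genes lie on 10 loci of GRCm38 (GENCODE M21). Ttn is at chr2:76703980-76982547 on the minus strand, and its longest transcript of 106824 bases in 347 exons is longer than 99.99% of those of the genes with at least 500 UMIs. Xirp2 is on the same chromosome at chr2:67446002-67526614. Zan (chr5:137378637-137477064) and B3galt2 (chr1:143640664-143654614) also have long transcripts, of 16481 and 9288 bases. The longest transcripts of Gm48051 (chr13:49970001-49974260) and Airn (chr17:12741311-12860136) are short, at 1185 and 1375 bases, so the members include both long and short transcripts. Hpgds is at chr6:65117293-65144908, Zfp981 at chr4:146502027-146539395, Stx19 at chr16:62814676-62824346 and Ednra at chr8:77663031-77724464.

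The measured genes that overlap the members lie on the opposite strand. Stx19 lies inside Arl13b, B3galt2 inside Cdc73 and Ednra inside 4933431K23Rik, a noncoding transcript. The sources used here do not state whether counting used the strand, so reads of these pairs may not be separable. The median log2 ratio of shallow to deep CPM (offset 1 CPM) was -0.75 for Arl13b, 0.26 for Cdc73 and 1.08 for 4933431K23Rik, so the neighbour of Ednra was also higher in shallow barcodes.

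The library chemistry primes on runs of A. The stretch of 30 bases richest in A in the longest transcript is printed for the 3 members with the longest transcripts and for Hpgds. Capitals mark the longest run of A within that stretch, not within the transcript (GENCODE M21 transcripts, 5′ to 3′).
Ttn: aaaagaagaaaagtctAAAAAgaaatcaaa
Zan: caggatatcacaaccagAAAAAAgatagaa
Xirp2: aaagaaatAAAAgggtacgaagaaagaaaa
Hpgds: AAAAAAAAAAAAAAAAAAAAcaaagaatca
The Ttn stretch ends 4619 bases before the transcript's 3′ end and holds 21 A, the Zan stretch ends 255 bases before it and holds 17, and the Xirp2 stretch ends 1278 bases before it and holds 20. The Hpgds stretch opens with 20 A in a row, in a transcript model of 1 exon and 3891 bases. A run of at least 10 A occurred in the longest transcript of 2 of 10 members, Ttn (2 runs, outside the printed stretch) and Hpgds. Such a run occurred in 16.8% of all genes with at least 500 UMIs, and its part in the counts was not tested.

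The 250 bases before the start site are printed for 3 members, Ttn, Stx19 and Hpgds. Their profiles were most like that of the other 9 (below), and shared control of the members was not tested. The printed bases come from RefSeq on GRCm38.p6, in the direction of transcription. Capitals mark matches on either strand to CANNTG (E-box) and CCAAT.
Ttn, chr2:76982548-76982797, minus strand: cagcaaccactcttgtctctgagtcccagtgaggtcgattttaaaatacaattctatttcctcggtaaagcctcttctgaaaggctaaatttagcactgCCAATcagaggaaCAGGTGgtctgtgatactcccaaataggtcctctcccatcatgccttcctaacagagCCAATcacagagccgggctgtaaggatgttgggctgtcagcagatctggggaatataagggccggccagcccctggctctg
Stx19, chr16:62814426-62814675, plus strand: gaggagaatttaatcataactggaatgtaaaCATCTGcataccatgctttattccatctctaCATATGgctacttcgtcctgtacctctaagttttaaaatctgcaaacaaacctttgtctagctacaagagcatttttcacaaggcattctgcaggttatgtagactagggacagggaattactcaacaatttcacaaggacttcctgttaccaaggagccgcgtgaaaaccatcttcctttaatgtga
Hpgds, chr6:65144731-65144980, minus strand: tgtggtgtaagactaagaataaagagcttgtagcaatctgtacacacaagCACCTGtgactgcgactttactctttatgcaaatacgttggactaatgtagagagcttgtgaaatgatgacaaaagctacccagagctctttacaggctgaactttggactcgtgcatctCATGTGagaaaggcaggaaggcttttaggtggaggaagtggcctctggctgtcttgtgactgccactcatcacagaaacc
Promoters were matched for 9 of 10 members. CANNTG occurred in 8 of these 9 and in 66.2% of all 32851 promoters, and CCAAT in 2 of 9 (Ttn and Zfp981) and in 33.8% of all. GGGCGG was in 2 of 9 (32.7% of all) and TATAAA in 1 (Airn, 12.4% of all). Neither TGACGTCA, the full cAMP response element (1.55% of all promoters), nor AACNGTC, a MYB core (6.64%), was in any of the 9 windows.

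Ttn was higher in shallow than in deep barcodes of every library. In shallow barcodes it stood at 47.2, 225 and 168 CPM in HFD replicates 1 to 3 and at 92.6, 107 and 220.3 CPM in LFD replicates 1 to 3. In deep barcodes the same libraries gave 6.42, 16.7, 12.5, 8.15, 12.6 and 13.9 CPM, so the sets did not overlap. The ratio of CPM per library, with no offset, had a median of 12.4 and ran from 7.36 to 15.8, and 77.6% of all 16735 Ttn UMIs were in shallow barcodes, which held 21.4% of all UMIs. HFD replicate 1 was the lowest library in both kinds of barcode.

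Xirp2, the other muscle gene, had a median ratio of 16.9 (7.21 to 21.04), the highest of the 10 where no offset is added. With an offset of 1 CPM, which weighs on low levels, its median log2 ratio was 3.16 and that of Ttn was higher, at 3.498. Its shallow level was 8.09, 20.9 and 22.6 CPM in the HFD libraries and 12.8, 10.4 and 17.7 CPM in the LFD libraries, against 0.610 to 1.44 CPM in deep barcodes. It rested on 1716 UMIs, and 80.9% of them were in shallow barcodes.

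Hpgds, which immune cells use to make prostaglandin D2, stood at 15.2, 40.8 and 30.4 CPM in shallow barcodes of the HFD libraries and at 28.0, 22.3 and 46.4 CPM in those of the LFD libraries. Its deep level was 2.85 to 6.29 CPM and its median ratio 6.98 (4.89 to 8.76). Ednra had 3.66, 24.1 and 16.2 CPM in the HFD and 9.58, 12.3 and 25.4 CPM in the LFD libraries, against 0.809 to 3.53 CPM in deep barcodes, with a median ratio of 6.68 (3.49 to 8.94).

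Zan, the acrosomal member, changed less with depth. Its shallow level was 11.7, 24.3 and 20.5 CPM in the HFD libraries and 22.0, 15.6 and 35.5 CPM in the LFD libraries, its deep level 3.83 to 7.35 CPM and its median ratio 4.19 (3.01 to 4.82). The noncoding Gm48051 had the most UMIs of the members, 41463, and the smallest median ratio, 3.48 (1.93 to 5.21), with 131 to 365 CPM in shallow and 43.7 to 81.7 CPM in deep barcodes. Shallow barcodes held 47.5% of its UMIs.

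Airn, the other noncoding member, had 4.71 to 16.4 CPM in shallow and 0.640 to 1.28 CPM in deep barcodes, a median ratio of 9.74 (6.63 to 15.96). Stx19 had 3.16 to 20.1 and 0.306 to 1.57 CPM, a ratio of 12.9 (6.64 to 16.7). B3galt2 had 10.1 to 69.6 and 0.809 to 9.41 CPM, a ratio of 7.55 (2.66 to 16.4), proportionally the widest range of the 10. Zfp981 had 6.05 to 47.6 and 2.11 to 6.18 CPM, a ratio of 5.96 (2.87 to 11.6), so its shallow and deep ranges overlapped across libraries. Within each library the shallow level was above the deep one for all 10 genes.

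Against the whole table, all 10 members had a median log2 ratio (offset 1 CPM) over 1, as had 1.66% of the 14766 genes with at least 500 UMIs. The choice of members fixes this count, and nothing is read from it. Their ranks by this ratio ran from 8 (Ttn) to 71 (Gm48051).

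**Figure D1:**
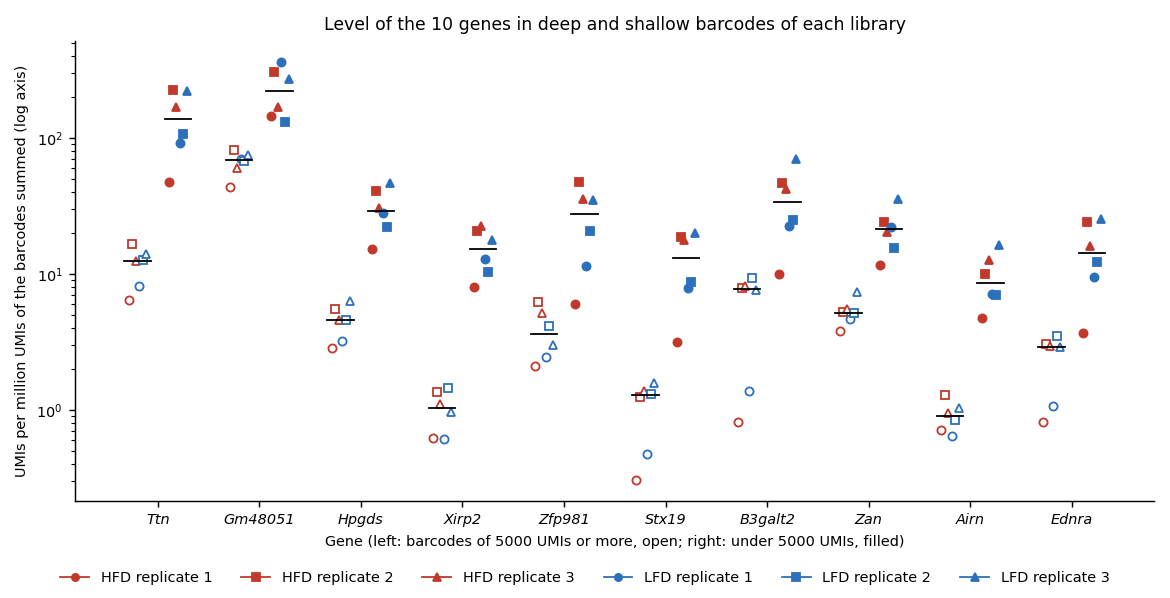
CPM of the 10 genes (log axis) in deep (open, left) and shallow (filled, right) barcodes of each of the 6 libraries, with black bars at the medians. Every filled point lies above the open point of the same library, and for Ttn the shallow points run from 47.2 to 225 CPM and the deep ones from 6.42 to 16.7 CPM.

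The level did not rise steadily towards the smallest totals. Ttn peaked in barcodes of 2000 to under 4000 UMIs in 5 of 6 libraries, with a median of 156 CPM (42.8 to 292), against 64.2 CPM (59.2 to 170) at 1000 to under 2000 UMIs. It stood at 38.2 CPM (7.64 to 113) at 4000 to under 8000, 15.04 CPM (5.98 to 17.9) at 8000 to under 16000 and 10.6 CPM (6.46 to 12.7) at 16000 or more. HFD replicate 1 was the exception, with its highest level in the lowest bin. The smallest total kept in a library ran from 1221 UMIs (HFD replicate 1) to 1948 UMIs (LFD replicate 2). The lowest bin thus spans unlike totals in the libraries and held 359 to 3880 barcodes, so its levels are not fully comparable between them.

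Hpgds and Xirp2 peaked at 2000 to under 4000 UMIs in all 6 libraries, with medians of 35 and 22.2 CPM there and 21.1 and 8.30 CPM in the bin below. Gm48051, Zfp981, Stx19, Zan and Airn did so in 5 libraries. Gm48051 rose again at the top, from 24.9 CPM (13.5 to 43.6) at 8000 to under 16000 UMIs to 75.0 CPM (47.8 to 81.4) at 16000 or more. B3galt2 and Ednra peaked at higher totals in some libraries. B3galt2 had a median of 35.6 CPM at 2000 to under 4000, 45.9 CPM at 4000 to under 8000 and 23.7 CPM (1.99 to 46.6) at 8000 to under 16000 UMIs, and Ednra had 14.5, 14.1 and 6.73 CPM in the same bins.

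**Figure D2:**
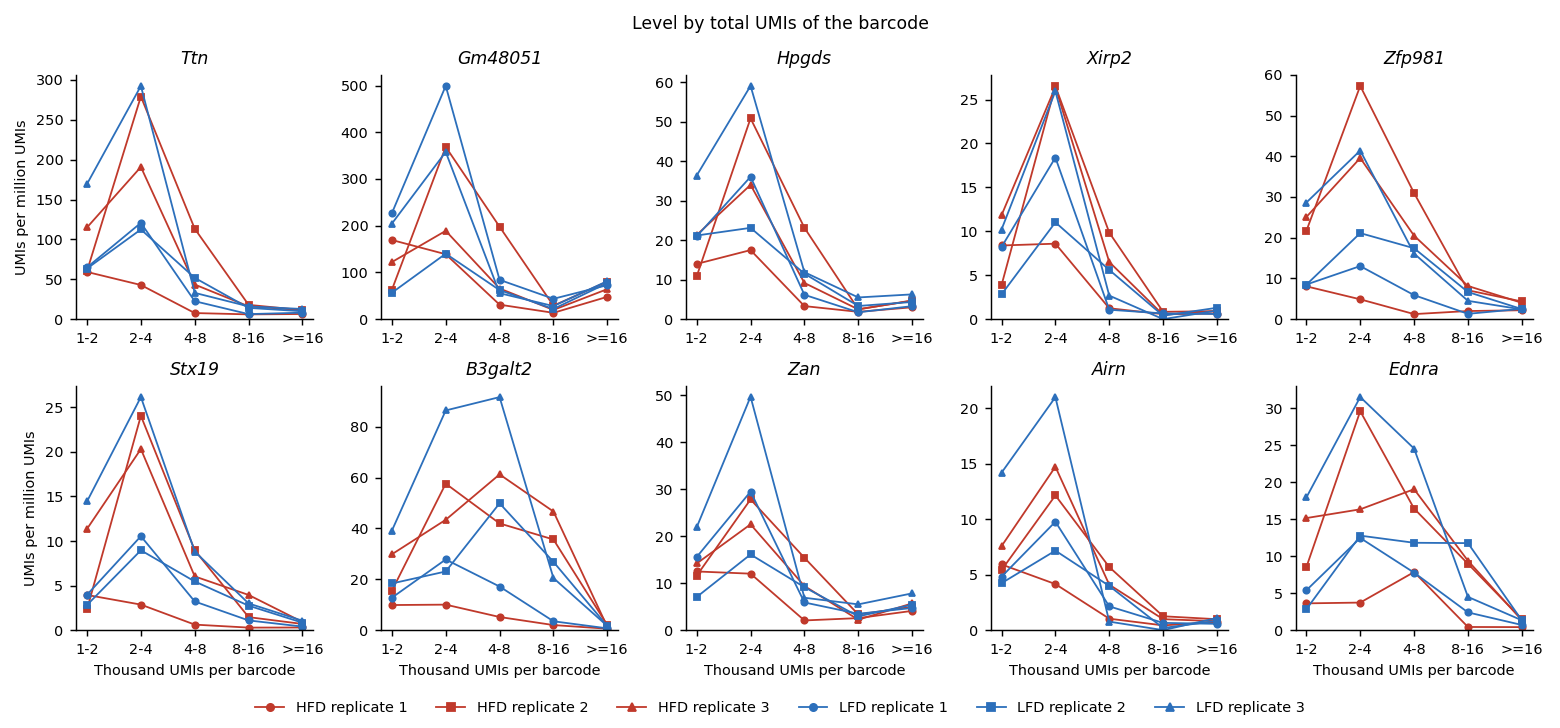
CPM of each gene (vertical axis, from 0) in 5 bins of total UMIs per barcode, with 1 line per library. Most lines peak in the second bin, while those of B3galt2 and Ednra also stay up in the third, and Gm48051 rises again in the last bin to a median of 75.0 CPM.

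The share of barcodes with a UMI depends on depth, so barcodes were thinned to 1000 UMIs each, which left out none. At this depth 3.84% to 14.3% of shallow and 0.621% to 2.67% of deep barcodes had a Ttn UMI. Before thinning the shares were 6.78% to 22.3% and 12.2% to 23.2%, so the unthinned shares of deep barcodes, which hold more UMIs, were as high or higher in 5 of 6 libraries. For Xirp2 the thinned shares were 0.887% to 1.94% and 0.0654% to 0.469%, and for Gm48051 8.90% to 18.5% and 3.27% to 6.73%.

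Within shallow barcodes the level followed the mitochondrial share of the barcode. Ttn had a median of 67.9 CPM (22.8 to 189) in barcodes with under 1% mitochondrial UMIs, 232 CPM (105 to 403) at 1 to 5%, 321 CPM (103 to 466) at 5 to 10% and 337 CPM (150.5 to 657) at 10 to 20%. At 20% or more it was at 39.6 CPM, with HFD replicates 2 and 3 at 337 and 185 CPM and the other 4 libraries at 31.5 to 40.3 CPM. The median totals of these 5 classes, over libraries, ran from 2103 to 2782 UMIs. Most shallow barcodes, 24602, fell in the lowest class.

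Xirp2 and Airn showed the same shape more steeply, from 2.37 to 49.8 CPM and from 2.14 to 36.4 CPM between the lowest class and the class of 10 to 20%, and 9.81 and 5.37 CPM above. Hpgds had 14.2, 69.9, 78.8, 67.2 and 14.0 CPM over the 5 classes, and Zan had 12.9, 25.5, 47.5, 48.6 and 8.00 CPM. Gm48051 had 333, 388 and 353 CPM in the 3 middle classes, 185 CPM below and 60.6 CPM above them. B3galt2, the galactosyltransferase, was the exception and had its highest median in the top class, at 93.2 CPM (48.6 to 96.4).

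B3galt2 was also high in deep barcodes rich in mitochondrial UMIs. It had 1.10 and 1.56 CPM in deep barcodes under 1% and at 1 to 5%, and 75.0 CPM (11.8 to 103) and 144 CPM (11.6 to 170) at 10 to 20% and at 20% or more. Ednra rose in the same deep classes, from 1.19 to 19 and 23.6 CPM, while Ttn went from 11.1 to 30.05 and 27.3 CPM. Gm48051 went the other way, with 93.6 CPM in deep barcodes under 1% and 30.6, 13.3, 34.3 and 17.1 CPM in the classes above. Deep barcodes of the top class held a median of 6616 UMIs, and those under 1% a median of 26630, so these deep classes also differed in depth.

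**Figure D3:**
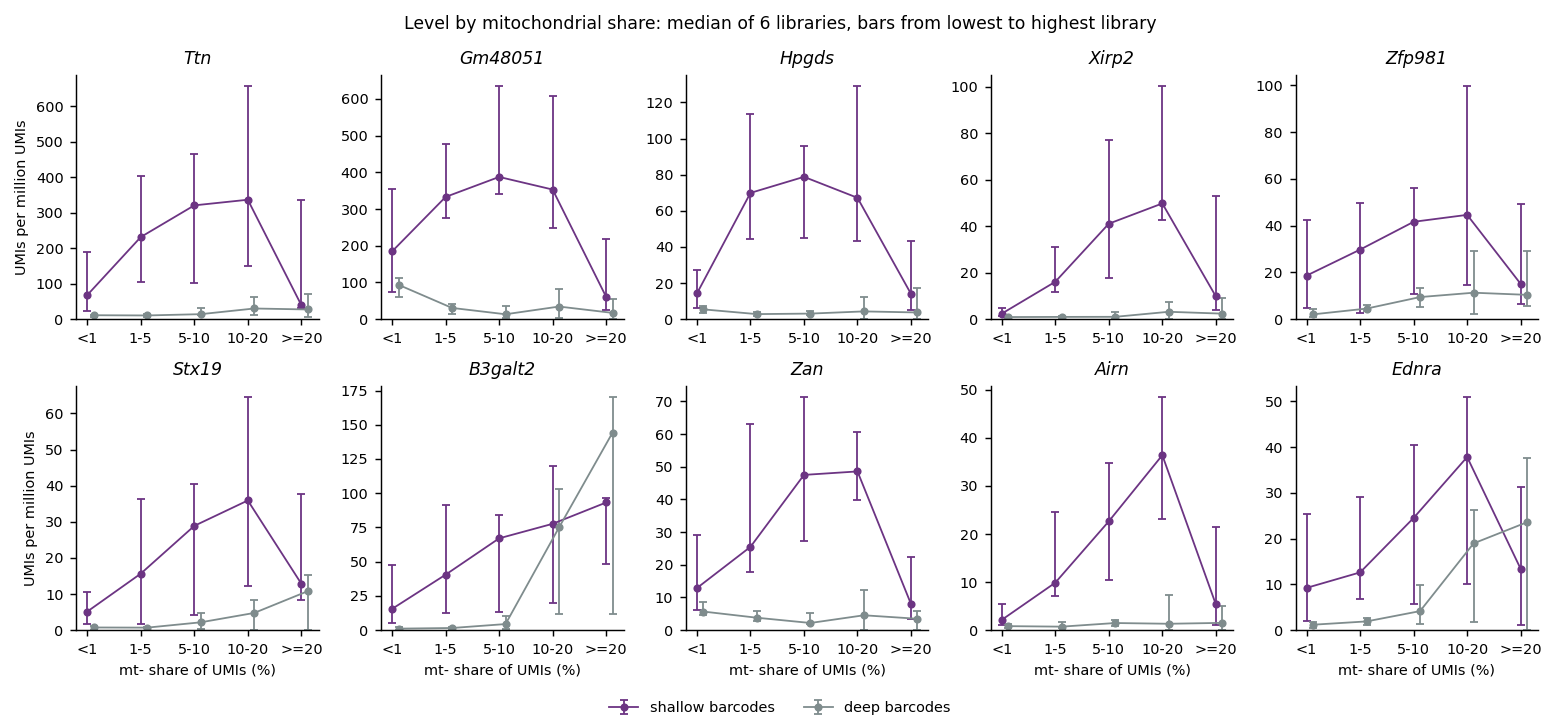
CPM of each gene (vertical axis, from 0) by the mitochondrial share of the barcode, in shallow (purple) and deep (grey) barcodes, as the median of 6 libraries with bars from the lowest to the highest library. In shallow barcodes 9 genes are lower at 20% or more than at 10 to 20%, and B3galt2 is at 93.2 CPM there.

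UMIs of the members occurred together more often than their separate shares give. The members were chosen for leading 1 group of shallow barcodes, so their choice favours this, and it is described with no test. Of the 36547 shallow barcodes, 30844 had no Ttn UMI, 2594 had 1, 1281 had 2, 798 had 3, 448 had 4 and 582 had 5 or more, with up to 17 in a barcode. Shallow barcodes with at least 2 Ttn UMIs were 2.10% to 14.5% of those of a library and held a median of 1962 to 3007 UMIs, close to the 1822 to 2786 UMIs of those with none. Median genes detected were 1234 to 1716 and 1123 to 1560. No UMI of any member was seen in 24760 shallow barcodes, 5370 had UMIs of 1 member, 2548 of 2, 1959 of 3 and 1910 of 4 or more.

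Each of the other 9 genes was higher in shallow barcodes with at least 2 Ttn UMIs than in those with none, in all 6 libraries. Xirp2 had a median of 80.6 CPM (54.7 to 124) with Ttn and 4.84 CPM (3.66 to 6.56) without it, a median ratio of 20.1 (8.34 to 26.9). Hpgds had 128 CPM (116 to 201) and 9.75 CPM (8.49 to 16.4), a ratio of 12.6 (7.97 to 23.7). The ranges with and without Ttn did not overlap for either gene.

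The noncoding Airn had 40.5 and 3.45 CPM (ratio 12.4, 3.31 to 15.98) and Gm48051 had 847 and 114 CPM (8.83, 4.39 to 12.9). Stx19 had 48.6 and 4.24 CPM (11, 5.58 to 24.0) and Zan 76.8 and 9.61 CPM (7.53, 4.73 to 9.47). Zfp981 had 89.2 and 15.4 CPM (6.99, 4.38 to 8.10), Ednra 51.1 and 9.15 CPM (6.13, 1.92 to 9.52) and B3galt2 109 and 18.7 CPM (5.34, 2.33 to 9.55). The medians of barcodes with exactly 1 Ttn UMI lay between for all 9 genes, with 43.4 CPM of Xirp2 and 83.7 CPM of Hpgds. Since Ttn was used to choose the group, these ratios describe the barcodes and are no test.

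Members also occurred together in pairs, both with and without Ttn in the pair. Over the 45 pairs of members, shallow barcodes with a UMI of both were counted against the product of the 2 separate shares within bins of 1000 UMIs. With the 6 libraries pooled they were 2.04 (B3galt2 with Zan) to 4.47 (Xirp2 with Airn) times as many. In single libraries the ratio ran from 1.02 (Stx19 with Ednra in LFD replicate 1, 2 barcodes) to 9.01 (Zfp981 with B3galt2 in HFD replicate 1, 14 barcodes). B3galt2 with Airn was at 1.07 in LFD replicate 3 (19 barcodes). Over the pooled libraries Xirp2 with Hpgds stood at 3.93 (294 barcodes) and Ttn with Xirp2 at 3.55 (770 barcodes). The choice of members favours such pairs. Barcodes of 1 library also share their source and depth is matched only within 1000 UMIs, so no test was made.

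**Figure D4:**
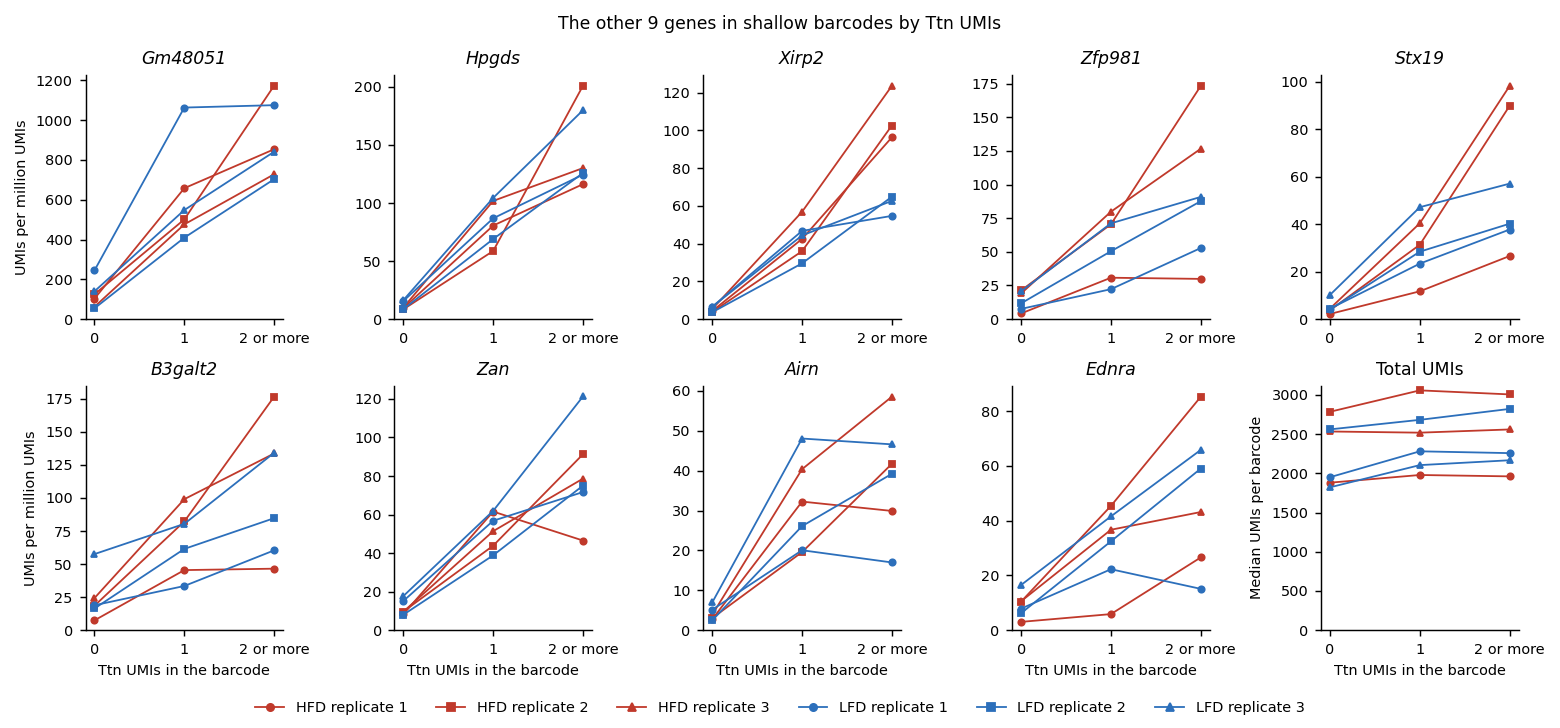
CPM of the other 9 genes (vertical axis, from 0) in shallow barcodes with 0, 1 or at least 2 Ttn UMIs, 1 line per library, and the median total UMIs of these barcodes in the last panel. In each library all 9 genes are higher at 2 or more than at 0, while the median totals stay between 1822 and 3058 UMIs.

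Other gene groups also differed between these barcodes, and their part in the pattern was not tested. The mitochondrial share was 7.23% to 10.4% with at least 2 Ttn UMIs and 2.27% to 12.9% with none. It was higher with Ttn in every library but LFD replicate 3, where it was 7.33% against 12.9%. Of the 13 mitochondrially encoded mRNAs, 8 had a median log2 ratio (offset 5 CPM) over 1 between these barcodes, against 5.7% of all 19299 genes with at least 100 UMIs, among them mt-Co2 and mt-Co3, subunits of cytochrome oxidase, at 1.38 and 1.25. Of the 10 round spermatid markers, 3 passed 1, Izumo1, the sperm protein of egg fusion, at 1.09, and Acrv1 and Lyzl1 at 1.74 and 1.10 (both named after their values were seen), and Spaca1 and Spaca3 of the acrosome were at 0.77 and 0.75. Of 10 measured imprinted or nuclear noncoding RNAs 2 passed 1, Kcnq1ot1 at 2.78 and Peg13 at 1.72 (named after its value was seen), with Malat1 at 0.44 and a list median of 0.05. Of 6 measured Leydig cell markers 1 passed 1, the fatty acid binding protein gene Fabp3 at 1.94, and the list median was -0.03.

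Macrophage, red blood cell, Sertoli cell and stress genes were lower in those barcodes. The 8 macrophage markers summed to 9.39 to 43.2 CPM with Ttn and 106 to 435 CPM without, with Cd74 at a log2 ratio of -4.93. The 5 erythroid genes summed to 0 to 4.73 CPM with Ttn and 2.504 to 553 CPM without. The 10 Sertoli markers summed to 16.6 to 130.2 CPM with Ttn and 48.1 to 635 CPM without, with a median log2 ratio of -0.85. The stress genes Atf3 and Hspa1a stood at -1.89 and -1.11. Markers of spermatogonia (median -0.19), early spermatocytes (-0.34) and elongating spermatids (-0.25) stood beside a median of -0.05 over all genes.

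By cell type, barcodes were assigned with a gate on marker UMIs, in which at least 5 UMIs from at least 3 markers of a class had to be at least 3 times the number that the barcode's total would give. The gate left 41099 barcodes (84.0%) outside every class, so the classes cover clear cases only. Only 3 barcodes passed the pachytene and late spermatocyte gate, so those outside the gates are a mixture and no cell type. Shallow barcodes made up 7.14% of spermatogonia, 18.8% of elongating spermatids, 31.3% of early spermatocytes and 58.4% of round spermatids. They were 74.9% of Sertoli cells, 86.2% of macrophages, 21.6% of the peritubular and stromal class and 82.7% outside the gates. Levels by class thus also differ in depth. Ttn was at 48.0 CPM (95% exact Poisson interval 47.2 to 48.7) outside the gates and at 47.9 CPM (44.5 to 51.4) in the 971 round spermatid barcodes, where 31.0% of barcodes had a UMI. It was at 14.8 CPM (12.7 to 17.1) in spermatogonia, 10.2 CPM (9.09 to 11.5) in early spermatocytes and 9.13 CPM (7.06 to 11.6) in Sertoli cells. In elongating spermatids it was at 2.77 CPM (2.30 to 3.31) and in the peritubular and stromal class at 1.58 CPM (0.191 to 5.69), where 1.23% of the 162 barcodes had a UMI at median totals of 6064 to 7939. The intervals of early spermatocytes, Sertoli cells and macrophages (7.52 CPM) overlapped. The round spermatid value varied from 16.9 to 315 CPM over libraries, whose median totals in that class ran from 2393 to 28693 UMIs. It depended on the gate, since with a threshold of 5 times only 57 round spermatid barcodes were left, 53 of them shallow, and Ttn stood at 95.2 CPM (52.1 to 160) from 14 UMIs.

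Gm48051, the noncoding member, was at 219 CPM (212 to 227) in round spermatids, with a UMI in 78.6% of barcodes, and at 115 CPM outside the gates. It was at 6.40 to 17.8 CPM in the other 6 classes, where the share of barcodes with a UMI was 3.64% to 11.4%. Zfp981, the zinc-finger member, was at 11.9 CPM (10.3 to 13.7) in round spermatids and 9.96 CPM outside the gates. Zan, although it encodes an acrosomal protein, was at 10.0 CPM (8.55 to 11.7) in round spermatids and 10.2 CPM outside the gates, and at 0.687 CPM (0.464 to 0.981) in elongating spermatids. In the 57 round spermatid barcodes of the stricter gate, Gm48051 was at 694 CPM (102 UMIs), Zan at 61.2 CPM (9 UMIs) and Zfp981 at 54.4 CPM (8 UMIs), against 108.9, 9.22 and 9.23 CPM outside the gates.

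Hpgds and Ednra were highest in somatic classes. Hpgds was at 98.6 CPM (81.6 to 118) in the 247 macrophage barcodes, from 118 UMIs, and ranged from 63.2 to 174 CPM over the 6 libraries. It was at 11.8 CPM outside the gates, 7.72 CPM in round spermatids (0 UMIs in the 57 barcodes of the stricter gate, with a 95% exact Poisson interval up to 25.1 CPM) and at most 3.32 CPM in the other 5 classes. A UMI was seen in 31.2% of macrophage barcodes and in 0.794% of elongating spermatid barcodes, at median totals of 2913 to 4881 and 7632 to 12600.5 UMIs.

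Ednra was at 82.7 CPM (67.6 to 100.1) in the peritubular and stromal class, from 105 UMIs, and ranged from 75.0 to 112 CPM over the 5 libraries with at least 10 such barcodes. It was at 6.65 CPM in round spermatids and 5.72 CPM outside the gates. The share of barcodes with a UMI was 43.2% in that class and 0.650% in elongating spermatids. Both genes thus had a class with a level above the shallow level of any library, but these classes are small. They held 118 of 4121 Hpgds UMIs and 105 of 2107 Ednra UMIs, and 3754 and 1824 UMIs lay outside every gate.

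**Figure D5:**
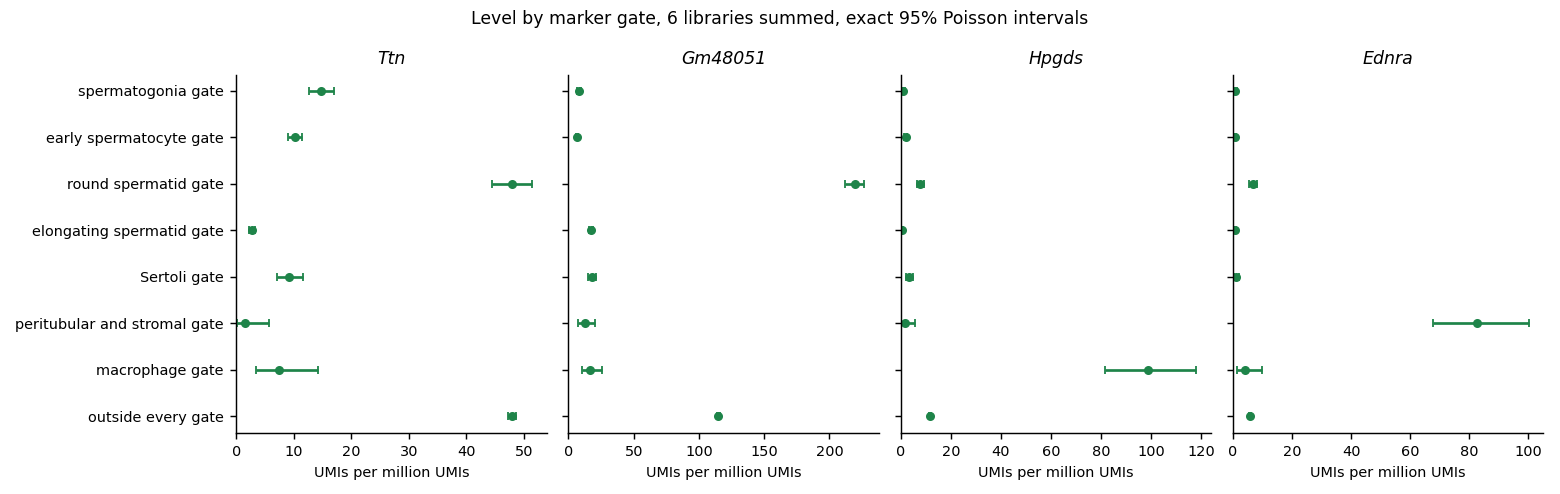
CPM of Ttn, Gm48051, Hpgds and Ednra (horizontal axes, from 0) by marker gate over the 6 libraries summed, with exact 95% Poisson intervals that cover counting error only. Hpgds stands out in the macrophage gate at 98.6 CPM, Ednra in the peritubular and stromal gate at 82.7 CPM and Gm48051 in round spermatids at 219 CPM, while Ttn is at 47.9 CPM in round spermatids and 48.0 CPM outside the gates.

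Among themselves, the members differed in how closely they followed the rest. Over 30 points (6 libraries by 5 depth bins, log2 of CPM with an offset of 5), Ttn had a Pearson correlation of 0.98 with the mean profile of the other 9, Stx19 0.96, Hpgds 0.94, Xirp2 0.94, Airn 0.93, Zan 0.92 and Zfp981 0.92. Ednra (0.79), Gm48051 (0.77) and B3galt2 (0.70) followed it less. The members were chosen for leading the same shallow barcodes, which favours high correlations. The points also share libraries, depth bins and the totals used for scaling, so these are descriptions with no test.

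Of the other genes among the 14766 ranked the same way, the 10 most like the members were Cd27 (0.96), Gm28940, Olfr1507, Olfr190, Ankrd44, Stc1, Thy1, Nmrk2, Gm47359 and Gm29237 (0.94). Cd27 is a receptor of lymphocytes, Thy1 a surface protein of T cells and neurons, Stc1 the hormone stanniocalcin and the Olfr genes encode odorant receptors. Their counts were small, from 504 to 3057 UMIs. Cd27 had 8.23 to 30.03 CPM in shallow and 2.56 to 6.23 CPM in deep barcodes, and a log2 ratio of 2.57 between shallow barcodes with at least 2 and with 0 Ttn UMIs. Olfr190 had 1.48 to 10.1 and 0.179 to 0.713 CPM, and 2.35 between the same barcodes.

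Relatives of the members are described by counts over a log2 ratio of 1, which few genes of the whole table passed. Of 35 sarcomere genes, 20 had at least 100 UMIs, and of these none had a median log2 ratio of shallow to deep over 1 (list median -0.11), against 1.8% of all genes with at least 100 UMIs (median -0.04). The offset of 1 CPM holds the ratio of rare genes near 0, so those close to 100 UMIs could hardly pass 1. Tnni3, the cardiac troponin I, had 11.1 to 16.7 CPM in shallow and 9.61 to 13.9 CPM in deep barcodes, and Neb, the giant actin-binding nebulin, 2.60 to 33.4 and 1.25 to 5.98 CPM. Xirp1, the paralogue of Xirp2, had 124 UMIs in all. With at least 2 against 0 Ttn UMIs the list's median was -0.05, and none of the 20 passed 1, against 5.7% of all genes with at least 100 UMIs. The offset there was 5 CPM, which rare genes could pass even less easily, so nothing is read from either count.

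The other families are counted the same way, beside 1.8% of all genes with at least 100 UMIs. At that share few or no genes of so short a list would pass, so the counts are not particular to the relatives. None of 9 measured prostaglandin genes passed 1 (median -0.07), with Ptgds, the lipocalin-type synthase that makes the same product as Hpgds, at 0.58. None of 3 endothelin pathway genes did (median -0.15), and Edn1, the ligand of Ednra, had 145 UMIs in all. None of 12 syntaxins (median -0.08) or of 6 beta-1,3-galactosyltransferases (median -0.24) did, and Igf2r, the target of Airn, was at -0.34. Of 10 zinc-finger neighbours of Zfp981, 1 passed, Zfp980 at 1.07 from 203 UMIs, and of 20 acrosome genes none did (median -0.26). Of 10 imprinted or nuclear noncoding RNAs, 1 passed, Kcnq1ot1 at 1.11, with Malat1 at 0.51. Between shallow barcodes with at least 2 and with 0 Ttn UMIs, 5 of the 20 acrosome genes passed 1 (offset 5 CPM, median 0.30). That stands beside 5.7% of all genes with at least 100 UMIs, and Acrv1 and Izumo1, given above, are among the 5. No prostaglandin, endothelin, syntaxin, galactosyltransferase or zinc-finger gene of these lists passed there. These lists were drawn up with earlier results of the data known, and only the counts and medians are given.

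Cell type lists between shallow and deep barcodes gave 7 of 8 macrophage markers and 4 of 5 erythroid genes over a log2 of 1 (medians 2.82 and 4.04), 11 of 13 mitochondrial mRNAs (1.22) and 5 of 12 stress genes (0.97). Of the 5 germ cell lists, 1 gene passed, Odf1 of the sperm tail at 1.08. The part of these groups in the members' levels was not tested.

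Diet was not used to choose the members, so their levels were tested between HFD and LFD on UMIs summed per library, with edgeR's quasi-likelihood test and adjustment over all genes. In shallow barcodes 0 of 16722 genes (0%) were called at an adjusted p under 0.05, with 170 at an unadjusted p under 0.05, and DESeq2 called 0 with 147 at that unadjusted p. None of the 10 members was called or had an unadjusted p under 0.05 by either tool. Since 0% of the table was called, the absence of calls is not particular to the members.

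Ttn had 147 ± 90.6 CPM (SD, n = 3) in HFD and 139.9 ± 69.97 CPM (SD, n = 3) in LFD shallow barcodes. Its log2 change, HFD minus LFD, was 0.13 ± 0.43 (SE), with a 95% interval from -0.80 to 1.06 and an edgeR adjusted p of 1.00. The largest change was that of Zfp981, 0.47 ± 0.53 (-0.67 to 1.60), with 29.8 ± 21.4 against 22.3 ± 11.9 CPM (SD, n = 3 each). Xirp2 had 0.39 ± 0.34 (-0.33 to 1.12), and the most negative was Zan, at -0.30 ± 0.32 (-0.98 to 0.38). The intervals of all 10 members spanned 0 and reached past a log2 of 0.5 on at least 1 side, so changes of that size are not excluded for any of them. The HFD and LFD libraries overlapped for all 10 genes, while 4.46% of genes with at least 500 UMIs in shallow barcodes did not overlap.

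In deep barcodes 0 of 19859 genes (0%) were called by edgeR (898 at an unadjusted p under 0.05) and 0 by DESeq2 (826). The members' log2 changes ran from -0.19 (Zan) to 0.52 (Zfp981, edgeR adjusted p 0.82), and none had an unadjusted p under 0.05. With a replicate block (deep sums of same-numbered libraries deviated together), 2 genes were called and no member was among them. Over all barcodes 0 of 20727 genes (0%) were called (471 at an unadjusted p under 0.05, DESeq2 0 with 430), with Ttn at -0.06 ± 0.52. The deep and total levels of all 10 genes also overlapped between diets, as did all but 7.71% and 6.12% of genes with at least 500 UMIs. No gene of any list passed the edgeR test in shallow, deep or all barcodes.

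HFD replicate 1 was the lowest library for 9 of 10 members in shallow barcodes and for all 10 over all barcodes. Between the 2 libraries numbered 1, Ttn in shallow barcodes was lower in HFD, by a log2 difference of -0.97, and between the other 4 it was higher, by 0.34. The same change of sign was seen for 9 of 10 members, among them Hpgds (-0.88 and 0.13), Ednra (-1.39 and 0.16) and Stx19 (-1.33 and 0.46), and not for Zan (-0.92 and -0.07). No test was made within the libraries numbered 1, of which there is 1 per diet. The share of all genes with these patterns was not counted. The members were chosen together and varied together, so these counts are not separate results.

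The share of barcodes that were shallow was 72.6% ± 3.28 (SD, n = 3) in HFD and 76.2% ± 9.08 (SD, n = 3) in LFD, a difference of -3.65 percentage points (p = 0.50, exact permutation test, two-sided). It ran from -0.41 without LFD replicate 2 to -8.84 without LFD replicate 1, where the HFD libraries (69.2% to 75.8%) and the LFD libraries (80.1% and 82.7%) no longer overlapped, and was -9.61 with a limit of 3000 UMIs. The exact permutation p without LFD replicate 1 was 0.20, the smallest that 3 against 2 libraries can give. The share of barcodes with a Ttn UMI after thinning to 1000 UMIs was 2.85%, 10.1% and 8.71% in HFD replicates 1 to 3 and 5.16%, 6.66% and 11.9% in LFD replicates 1 to 3. The difference of means was -0.69 percentage points (7.22% ± 3.85 against 7.91% ± 3.54, SD, n = 3 each, p = 0.90, exact permutation test, two-sided). With 3 against 3 libraries the smallest p this test can give is 0.1. The groups overlapped in both measures. The difference in the Ttn share was smaller than the SD of either diet, and that in the shallow share was larger than the HFD SD and smaller than the LFD SD.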

How the data were processed

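Testis single-cell libraries, 6 in all, were made by the authors on the 10x Genomics droplet platform and counted with Cell Ranger 6.0.1 against mm10, and the deposited matrices hold UMI counts per gene and barcode, not normalised. The kit version differs between the labels and the study's methods and is not given here, and the sources do not say whether counting used the strand. The deposited matrices hold 5753 to 11095 barcodes and 39196921 to 95845514 UMIs per library. Filters of 200 genes at least and 40000 at most removed 0 barcodes, and no doublet caller was run.

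Members and gene lists were chosen with earlier results of these data known. Named were all 10 members, the 10 other genes with the profile most like theirs, and from each list up to 2 genes with the most UMIs and up to 2 with the highest shallow over deep ratio. Barcodes were split at 5000 UMIs. Fold ratios of CPM have no offset, while log2 ratios and the ranks over all genes used an offset of 1 CPM (5 CPM in barcodes split by Ttn UMIs and for profiles).

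Counts summed per library were tested with edgeR 4.0.16 (quasi-likelihood, Benjamini-Hochberg) in R 4.3.3, with DESeq2 1.42.0 as an alternative, and single values by exact permutation (scipy 1.17.1). The test was checked on simulated counts first. Replicate numbers come from the titles. Deviations of same-numbered libraries correlated at 0.28, 0.14 and 0.18 in deep sums, 0.46, -0.23 and 0.25 in shallow sums and 0.49, 0.03 and 0.26 in all barcodes, so the numbers were taken to pair the libraries in deep sums only. Alternatives were other depth limits, thinning depths, gate thresholds and count filters, each library left out, a replicate block and a term for the libraries numbered 1. Leaving out both libraries numbered 1 was chosen after seeing the data.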

Additional observations from a re-analysis of the deposited data

How the results depend on the processing

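No member was called between diets under any alternative, and the 10 shallow over deep ratios stayed above 1 under all. The number of genes called by edgeR, 0 in each sum, moved with the libraries and the block. Over all barcodes it was 24 with the replicate block (1 higher and 23 lower in HFD), 0 to 2 when 1 library was left out (2 without HFD replicate 1) and 93 without both libraries numbered 1. In shallow barcodes it was 18 with no filter on low counts, 0 with the replicate block and 26 without both libraries numbered 1. In deep barcodes it was 2 with the replicate block, 0 to 182 when 1 library was left out (182 without HFD replicate 1) and 288 without both libraries numbered 1. The cause was not tested.

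The members' log2 changes in shallow barcodes were small against their errors, and several changed sign. With the replicate block, which pairs libraries by number, Ttn was at -0.046 and Stx19 at -0.025, and with a term for the libraries numbered 1 they were at -0.063 and -0.062. Without both libraries numbered 1, Gm48051 was at 0.30, Hpgds at 0.12, Airn at 0.037 and Ednra at 0.17. With a limit of 3000 UMIs B3galt2 was at 0.16 and Ednra at 0.10, and with 10000 UMIs Ednra was at 0.017. Leaving out 1 library gave -0.32 to 0.53 for Ttn, -0.62 to 0.12 for Gm48051, -0.43 to 0.18 for Hpgds, -0.051 to 0.93 for Zfp981, -0.16 to 0.63 for Stx19, -0.51 to 0.44 for B3galt2, -0.37 to 0.35 for Airn and -0.61 to 0.40 for Ednra. The difference in the share of barcodes with a Ttn UMI was 0.0106 percentage points after thinning to 500 UMIs, 0.118 without both libraries numbered 1 and -2.13 to 1.49 when 1 library was left out. That in the share of shallow barcodes was -8.84 to -0.41 when 1 library was left out, -9.61 with a limit of 3000 UMIs and -7.15 without both libraries numbered 1.

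With a limit of 3000 UMIs the median shallow over deep ratio was 8.94 for Ttn, 5.42 for Hpgds, 10.2 for Xirp2 and 9.12 for Stx19, and with 10000 UMIs it was 13.8 for B3galt2 and 11.8 for Ednra. With a gate threshold of 5 times, Ttn was at 8.32 CPM in early spermatocytes, 95.2 CPM in round spermatids and 43.4 CPM outside the gates. The round spermatid class then held 57 barcodes in place of 971, and its value rests on 14 UMIs. With 3 libraries per diet, the 95% intervals of the members' changes were wide, such as -0.67 to 1.60 for Zfp981, and changes within them are not excluded.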
